A study of Homo sapiens with 5 samples.

Results

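The comparison described is the expression profile of HPAF1, a pancreatic carcinoma line, against that of HPDE, a line of pancreatic duct epithelium. Its members are all genes that have a probe set carrying 1 gene symbol, 19775 in all. Of these, 14894 passed a filter on dim values and form the body of the comparison. Each of the 5 lines of the series, HPAF1, HPDE, PANC1, SU86.86 and L3.6, was profiled on 1 Affymetrix expression array, so 2 of the 5 arrays enter the difference and the other 3 serve to show what HPAF1 does not share with PANC1, SU86.86 and L3.6. All are established human lines, and the labels name no treatment. The source label calls all 5 of them cancer lines, HPDE included. HPDE is known in the field as duct epithelium immortalised with papillomavirus oncogenes, which is background and not stated in the labels. Each line stands for 1 tumour or 1 donor. With no second culture, no value carries a replicate error and no test or p-value is given. A level below is log2(intensity + 71.1), and a difference is HPAF1 minus HPDE on that scale. A gene is called higher or lower where the difference reached 2-fold, which is 1 on the log2 scale. The added constant makes differences of dim genes too small. A level under 7.72, the filter, is written as below the filter. The median of a gene list is over its members above the filter in some line, unless said otherwise.

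Pancreatic ductal carcinomas fall along an axis between a classical state, which resembles mucus-secreting gastrointestinal epithelium, and a basal-like state, which borrows genes of stratified squamous epithelium. Endoderm transcription factors such as the GATA, HNF and FOXA families maintain the first state, and carcinoma cells can also lose adhesion genes and gain mesenchymal ones. Normal duct cells carry simple epithelial keratins, secrete bicarbonate and divide rarely. In culture, cell lines differ further in their rate of division and in the steady activity of their interferon response.

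HPAF1 differed from HPDE by 2-fold or more at 2538 of the 14894 genes. In HPAF1 1157 genes were higher (7.77%) and 1381 lower (9.27%), and the median over all genes was 0.02. Counts of list members below are to be read beside these shares. The lower genes were more numerous at 2-fold, but the higher ones reached further. At 4-fold 364 genes were higher and 246 lower, and at 16-fold 45 were higher and 27 lower. HPDE had 366 of the 1157 higher genes below the filter, and HPAF1 had 366 of the 1381 lower genes below it. The last genes inside the 2-fold threshold were GSTM4 (1.002) and HK1 (-1.00038), and the first outside it were CHKA (0.999957) and MCM3 (-0.999625). The split of higher and lower genes depends on the scaling of the arrays. The spike-in controls of the array's maker were on average 0.13 lower on the HPAF1 array than on the HPDE array, and after scaling to them 1323 genes were higher and 1109 lower. That scaling moved the median of all genes to 0.12. Some genes named below were under 2-fold in at least 1 alternative. Besides those for which this is said in place, they were CD14, ERAP2, ESAM, FZD5, GAL, GDF15, HHEX, HLA-DQB1, HOXB2, HOXB3, IGF1R, IRF5, LSS, RASSF8, RBL1, SERPINB9, SNX10, SOCS3, SPINK1, TAP2, TAPBPL, TFPI2, TUBA1B, TYMS and ULBP2. Genes named outside the naming rule were not recomputed under the alternatives. Probe sets of a gene can disagree, and where nothing is said in place their agreement is not implied.

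**Figure D1:**
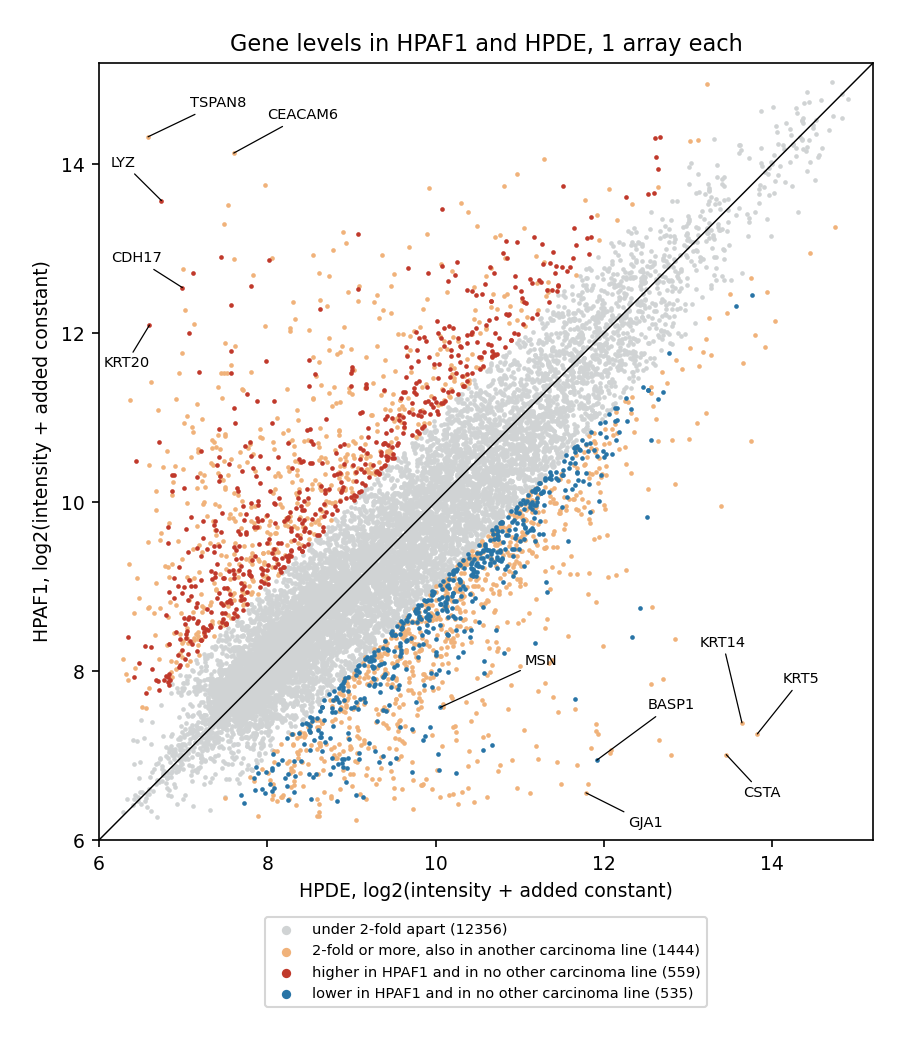
Level of each of the 14894 genes in HPDE (horizontal) and in HPAF1 (vertical), both as log2(intensity + added constant), with the diagonal marking equal levels. The 559 genes in red and 535 in blue were 2-fold or more from HPDE in HPAF1 and in no other carcinoma line, and the 1444 in orange were shared with at least 1 of them.

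Most genes that separated HPAF1 from HPDE did not separate all carcinoma lines from HPDE. Of the 1157 higher genes, 559 (3.75% of all genes) were higher in HPAF1 and not 2-fold higher in PANC1, SU86.86 or L3.6, 285 were shared with 1 of these lines, 169 with 2 and 144 with all 3. Of the 1381 lower genes, 535 (3.59% of all genes) were lower in HPAF1 and in no other carcinoma line, 308 were shared with 1, 240 with 2 and 298 with all 3. All 4 differences share the HPDE array, so these counts follow from the way the genes were sorted and are not independent of each other. A gene can be unshared because another line fell just short of 2-fold. HPAF1 also lay 2-fold or more above each of the other carcinoma lines in 331 of the 559, and 2-fold or more below each in 173 of the 535. In 99 of the 559 all 4 other lines were below the filter.

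Among the largest differences between HPAF1 and HPDE were digestive-tract genes on the higher side and keratinocyte genes on the lower side, beside other genes. TSPAN8, a tetraspanin of gastrointestinal epithelium, stood at 14.33 in HPAF1, 6.58 in HPDE, 6.68 in PANC1, 7.45 in L3.6 and 8.37 in SU86.86. LYZ, the secreted antibacterial enzyme lysozyme, stood at 13.57 in HPAF1, 6.74 in HPDE, 6.78 in PANC1, 6.85 in L3.6 and 6.73 in SU86.86. CEACAM6, a carcinoembryonic antigen relative on the surface of many gut tumours, stood at 14.13 in HPAF1, 7.60 in HPDE, 7.37 in PANC1, 8.48 in L3.6 and 12.18 in SU86.86. HPAF1 had the highest level of each, but SU86.86 was high in CEACAM6 too, whereas LYZ was below the filter in all lines but HPAF1. The differences from HPDE were 7.74, 6.83 and 6.53. The rest of the 15 highest were AGR2 (5.99), MMP7 (5.81), UCA1 (5.79), TMC5 (5.77), LGALS4 (5.60), CDH17 (5.55), KRT20 (5.50), ANXA10 (5.45), PLAC8 (5.27), ACSL5 (5.25), MMP1 (4.98) and BAMBI (4.92). AGR2, a disulfide isomerase needed for mucin folding, was no mark of HPAF1 among carcinoma lines: it was nearly as high in PANC1 (13.48) as in HPAF1 (13.52).

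At the other end lay, among others, genes of basal and stratified epithelium that HPDE expressed. KRT5, the type II keratin of basal cells, stood at 7.26 in HPAF1, 13.83 in HPDE, 7.30 in PANC1, 12.41 in L3.6 and 9.68 in SU86.86. KRT14, its type I partner, stood at 7.39 in HPAF1, 13.64 in HPDE, 7.19 in PANC1, 7.44 in L3.6 and 6.99 in SU86.86. CSTA, a protease inhibitor of the cornified envelope, stood at 7.01 in HPAF1, 13.46 in HPDE, 6.80 in PANC1, 10.30 in L3.6 and 7.75 in SU86.86. In HPAF1 all 3 were below the filter, and the differences were -6.57, -6.25 and -6.44. S100A8 (-5.79) and S100A9 (-5.04), which together form calprotectin, were among the 15 lowest, as were TRIM29 (-4.80), the keratinocyte transcription factor SOX15 (-4.68), the D-type cyclin CCND2 (-4.76), the cytochrome CYP1B1 (-4.71), the gap junction protein GJA1 (-5.23), BEX2 (-5.15), BASP1 (-4.97) and CALD1 (-4.83), an actin-binding regulator of contraction. BASP1 has a second probe set above the filter, which differed by only -0.25. Other probe sets also gave smaller differences for CALD1 (down to -0.86), S100A8 (-1.59) and CCND2 (down to -1.59). The other carcinoma lines were not uniformly low, with KRT5 at 12.41 in L3.6 and S100A9 at 11.61 in SU86.86.

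Probe sets for the MIR205 gene and its host transcript MIR205HG were also among the 15 lowest. The MIR205 probe set stood at 7.18 in HPAF1, 12.66 in HPDE, 7.04 in PANC1, 10.28 in L3.6 and 7.36 in SU86.86. MIR205HG, on its own probe set, stood at 6.88 in HPAF1, 11.68 in HPDE, 6.91 in PANC1, 9.53 in L3.6 and 7.05 in SU86.86. Both were high in HPDE, intermediate in L3.6 and below the filter elsewhere. The array detects the longer transcripts, not the mature microRNA. The mature forms given by RefSeq on GRCh38.p14 (chr1:209432166-209432187 and chr1:209432203-209432223, plus strand) are shown because miR-205 is known as a microRNA of stratified epithelium, with the seed, bases 2 to 8, in capitals.
hsa-miR-205-5p: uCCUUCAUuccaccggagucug
hsa-miR-205-3p: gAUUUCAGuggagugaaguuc

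The duct label of HPDE was checked against duct markers. Of the 19 above the filter in some line, 4 were below it in HPDE. KRT19, the keratin of duct cells, stood at 14.32 in HPAF1, 12.67 in HPDE, 9.84 in PANC1, 13.40 in L3.6 and 13.52 in SU86.86. SOX9, a transcription factor of duct progenitors, stood at 10.77 in HPAF1, 7.92 in HPDE, 11.36 in PANC1, 9.38 in L3.6 and 11.54 in SU86.86. CFTR, the chloride channel of duct secretion, stood at 7.64 in HPAF1, 7.45 in HPDE, 7.45 in PANC1, 7.41 in L3.6 and 7.74 in SU86.86 which is below the filter in all lines but SU86.86. HPDE thus had KRT19 and KRT7 (12.15), another duct keratin, together with the basal keratins, while SOX9 lay close to the filter and CFTR below it. Of 24 measured duct markers, 11 were higher in HPAF1 and 0 lower, with a median of 1.33 over the 19 above the filter and 0.82 over all 24. The simple keratin KRT8 was 11.29 in HPDE and 14.06 in HPAF1. Conversely, of 22 measured basal and squamous markers, 18 were lower in HPAF1 and 1, the cytolinker DST (1.26), was higher, with a median of -2.28. The medians of that list were -2.89 in PANC1, -1.31 in L3.6 and -1.77 in SU86.86, so HPAF1 lay between PANC1 and the other carcinoma lines. Of the 30 measured cornified envelope genes, 12 were lower and 0 higher, among them SPRR1B (-3.81), SPRR2B (-3.25), SPRR1A (-3.10) and the crosslinking enzyme TGM1 (-2.45). The SPRR genes are close copies of each other and their probe sets may share targets. Each gene of these 2 lists that differed in HPAF1 differed the same way in at least 1 other carcinoma line.

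Among the genes higher in HPAF1 and in no other carcinoma line, intestinal genes had several of the widest gaps. CDH17, the liver-intestine cadherin, stood at 12.54 in HPAF1, 6.99 in HPDE, 7.03 in PANC1, 7.08 in L3.6 and 7.07 in SU86.86. KRT20, a keratin of intestinal and gastric surface cells, stood at 12.10 in HPAF1, 6.60 in HPDE, 6.84 in PANC1, 6.88 in L3.6 and 6.86 in SU86.86. LGALS4, a galectin of apical transport in enterocytes, stood at 12.71 in HPAF1, 7.11 in HPDE, 7.45 in PANC1, 7.48 in L3.6 and 7.48 in SU86.86. In each case HPAF1 was far above the filter and the 4 other lines were all below it. VIL1, the bundling protein of microvilli, was 11.79 in HPAF1 and 7.48 to 7.62 in the other carcinoma lines on 1 probe set, but its difference from HPDE was 0.81 on the probe set that a smaller added constant selects. Of 48 measured intestinal genes, 19 were higher in HPAF1 and 1, the stem cell factor ASCL2 (-1.68), was lower. All 19 of the higher ones were higher in no other carcinoma line. The median was 0.95 over the 40 above the filter and 0.47 over all 48, and the medians of the other lines were 0.09 in PANC1, 0.11 in L3.6 and 0.04 in SU86.86.

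The intestinal genes of HPAF1 covered several layers of the brush border. For the cytoskeleton, the motor MYO1A was 9.07 against 7.07 in HPDE, and the adhesion scaffold USH1C was 9.45 against 7.28. CDHR2, a protocadherin that links microvilli, differed by 2.11. Membrane enzymes included the peptidase DPP4, at 9.77 in HPAF1, 7.38 in HPDE, 7.32 in PANC1, 7.34 in L3.6 and 7.47 in SU86.86, and sucrase-isomaltase, SI (1.52). Surface tetraspan proteins included TM4SF4, at 12.56 in HPAF1, 7.81 in HPDE, 7.75 in PANC1, 7.69 in L3.6 and 7.87 in SU86.86, with TM4SF5 (1.16) and TM4SF20 (1.07) less far apart. SI was 7.94 in HPAF1, only just above the filter.

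**Figure D2:**
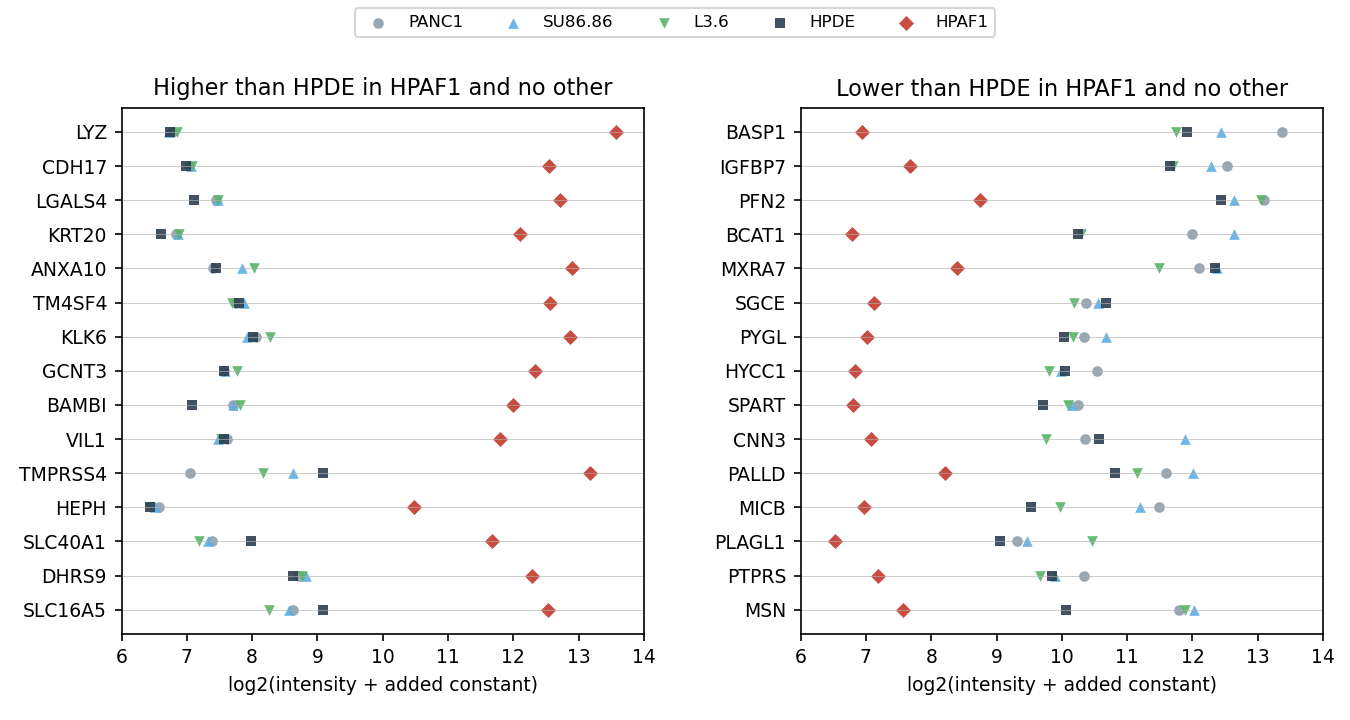
Level in each of the 5 lines (log2(intensity + added constant), horizontal) of 30 genes that differed from HPDE in HPAF1 and in no other carcinoma line, namely the 15 on each side for which HPAF1 lay farthest from all other lines. HPAF1 diamonds stand clear on 1 side of all other symbols, from LYZ at 13.57 to MSN at 7.57.

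A gastric component stood beside the intestinal one. ANXA10, an annexin of gastric epithelium, stood at 12.90 in HPAF1, 7.45 in HPDE, 7.40 in PANC1, 8.02 in L3.6 and 7.84 in SU86.86. The trefoil peptide TFF2 stood at 10.01 in HPAF1, 7.25 in HPDE, 7.45 in PANC1, 8.78 in L3.6 and 10.65 in SU86.86, and PSCA, a surface antigen of gastric mucosa and pancreatic carcinoma, at 8.76 in HPAF1, 7.16 in HPDE, 6.90 in PANC1, 7.06 in L3.6 and 7.03 in SU86.86. TFF2 was thus shared with other carcinoma lines and PSCA was not. Of 27 measured gastric genes, 9 were higher and 0 lower in HPAF1, 6 of them in no other carcinoma line. The median was 0.48 over the 22 above the filter and 0.35 over all 27. The classical pancreatic tumour signature, 38 measured, had 25 members higher and 0 lower and a median of 2.13, whereas its medians were 0.04 in PANC1, 0.17 in L3.6 and 0.09 in SU86.86. Of the 25, 16 were higher in no other carcinoma line, such as CLRN3 (3.44), DDC (2.74), ATP10B (2.24) and S100P (2.23). Members that another line shared included the glutathione peroxidase GPX2, 12.93 in HPAF1, 8.54 in HPDE and 10.55 in L3.6. The basal-like signature was split in HPAF1. Of 30 measured genes, 7 were higher and 7 lower, with KRT5, S100A2 (-4.47) and SPRR3 (-2.64) at the low end and UCA1, the retinol dehydrogenase DHRS9 (3.66), MSLN (2.89) and CDA (2.61) at the high end. These lists overlap each other in TSPAN8, LYZ, AGR2, ANXA10 and several more genes, so their medians are not separate observations.

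Mucins and the enzymes that glycosylate them were higher wherever they differed by 2-fold. Of 38 measured, 16 were higher and 0 lower, 8 of them in no other carcinoma line. The median was 0.76 over the 34 above the filter and 0.54 over all 38. MUC1, the membrane mucin of duct and gastric surfaces, stood at 11.52 in HPAF1, 8.57 in HPDE, 8.87 in PANC1, 9.55 in L3.6 and 8.72 in SU86.86. GCNT3, which builds branched mucin glycans, stood at 12.34 in HPAF1, 7.57 in HPDE, 7.57 in PANC1, 7.77 in L3.6 and 7.58 in SU86.86, and the sulfotransferase CHST4 at 10.94 in HPAF1, 7.61 in HPDE, 7.70 in PANC1, 7.71 in L3.6 and 7.93 in SU86.86. GCNT3 was close to the filter in every line but HPAF1, while CHST4 and MUC1 were present there at more than 4-fold above HPDE. MUC20 (4.05), GALNT5 (3.64) and ST3GAL1 (2.88) were higher too, but not in HPAF1 without another carcinoma line. Tumour surface antigens were mostly higher too. Of 32 measured, 17 were higher and 1, LYPD3 (-1.35), lower. Those in HPAF1 and no other carcinoma line included mesothelin, MSLN, at 10.94 in HPAF1, 8.05 in HPDE, 7.97 in PANC1, 8.04 in L3.6 and 7.88 in SU86.86, the choline transporter SLC44A4, at 10.71 in HPAF1, 7.79 in HPDE, 7.95 in PANC1, 8.16 in L3.6 and 8.67 in SU86.86, and CEACAM1 (2.45), while TM4SF1 (4.83) was higher in all 4.

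Among transcription factors of endoderm and duct, 11 of 31 measured were higher in HPAF1 and 1, HHEX (-1.10), was lower, with a median of 0.49. Of the 11, 8 were higher in no other carcinoma line. HNF4G, a nuclear receptor of gut epithelium, stood at 9.48 in HPAF1, 7.37 in HPDE, 7.29 in PANC1, 6.90 in L3.6 and 7.11 in SU86.86. CDX2, the intestinal homeobox factor, stood at 8.57 in HPAF1, 7.16 in HPDE, 7.29 in PANC1, 7.58 in L3.6 and 7.40 in SU86.86. FOXA3, NR5A2 and GATA6, all factors of foregut derivatives, differed by 1.98, 1.87 and 1.04. HPAF1 was above the filter for each, whereas the other 4 lines were below it for CDX2, HNF4G, FOXA3 and NR5A2. PDX1, the early pancreatic factor, did not reach 2-fold (0.11) and lay between 8.39 in L3.6 and 8.64 in SU86.86 in all lines.

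The promoter of ANXA10, among the 15 genes with the widest gap above the other lines, is shown because its window holds a motif match. The motif is that of HNF1, a homeodomain factor of gut and liver. The motif searched was GTTAAT, any base, then ATT, on both strands of windows reaching 250 bases before and 50 after the RefSeq start. It occurred in 5 of 433 windows (1.16%) of the genes higher in HPAF1 and in no other carcinoma line, and in 24 of 11885 windows (0.202%) of all genes compared. It occurred in 0 of 29 windows of the intestinal list. A match says nothing of factor binding in these lines, and a part of HNF1 in the differences was not tested. ANXA10 (GRCh38.p14, chr4:168092287-168092586, plus strand) has the match in capitals, starting 215 bases before the start.
ANXA10: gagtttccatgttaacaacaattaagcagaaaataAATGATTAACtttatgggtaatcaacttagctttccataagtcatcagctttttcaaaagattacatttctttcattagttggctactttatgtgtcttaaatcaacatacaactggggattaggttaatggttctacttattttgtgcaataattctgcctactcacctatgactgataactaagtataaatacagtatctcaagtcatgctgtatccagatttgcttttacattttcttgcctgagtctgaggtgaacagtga

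Tight junction genes were higher in HPAF1 than in HPDE wherever they differed by 2-fold, whereas more desmosome genes were lower than higher. Of 31 measured genes of tight junctions and apical transport, 13 were higher and 0 lower, 9 of them in no other carcinoma line, and the median was 0.85. CLDN4 stood at 12.04 in HPAF1, 8.49 in HPDE, 7.29 in PANC1, 8.72 in L3.6 and 10.52 in SU86.86. The motor MYO5B, which carries recycling vesicles to the apical face, stood at 12.01 in HPAF1, 10.03 in HPDE, 7.17 in PANC1, 8.87 in L3.6 and 10.12 in SU86.86, although its difference was 0.69 with probe sets that match 1 transcript. CLDN23 (1.85), PARD6B (1.68) and TJP3 (1.51) were other members without a partner among the carcinoma lines. The wider list of epithelial state genes, 40 measured, had 10 higher and 4 lower. CDH1, the epithelial cadherin, stood at 12.90 in HPAF1, 13.34 in HPDE, 8.61 in PANC1, 9.92 in L3.6 and 12.73 in SU86.86, so HPAF1 and SU86.86 were near HPDE while PANC1 and L3.6 were lower. The 4 lower genes were GRHL1 (-2.80) and GRHL3 (-1.62), which are grainyhead factors of stratified epithelium, the desmosomal plaque protein DSP (-1.53) and the splicing factor ESRP1 (-1.06). Desmosome and gap junction genes were lower in 8 of 25 and higher in 2, GJB1 (1.86), the connexin of liver and exocrine glands, and GJA3 (1.04).

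Secreted and membrane proteases and their regulators were also more often higher than lower where they differed by 2-fold. Of 36 measured, 15 were higher and 1, TIMP3 (-2.48), was lower, and 7 of the 15 were higher in no other carcinoma line. KLK6, a kallikrein-related peptidase, stood at 12.86 in HPAF1, 8.02 in HPDE, 8.06 in PANC1, 8.27 in L3.6 and 7.92 in SU86.86. KLK10, of the same gene cluster, stood at 13.47 in HPAF1, 10.08 in HPDE, 7.32 in PANC1, 8.36 in L3.6 and 7.10 in SU86.86 on 1 probe set. Its difference was 0.90 with probe sets that match 1 transcript. TMPRSS4, a transmembrane serine protease of carcinomas, stood at 13.17 in HPAF1, 9.08 in HPDE, 7.04 in PANC1, 8.16 in L3.6 and 8.62 in SU86.86. HPAF1 was the highest line for all 3, by more than 8-fold over HPDE. MMP7, matrilysin, was shared with SU86.86, at 13.30 in HPAF1, 7.48 in HPDE, 7.54 in PANC1, 7.58 in L3.6 and 10.05 in SU86.86, and MMP1, a collagenase, with L3.6 and SU86.86, at 12.11 in HPAF1, 7.13 in HPDE, 7.48 in PANC1, 10.53 in L3.6 and 8.44 in SU86.86. Clade B serpins, 11 measured, had 2 higher, SERPINB1 (3.16) and SERPINB9 (2.07), and 2 lower, SERPINB3 (-1.94) and SERPINB7 (-1.46).

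Several groups of metabolic enzymes differed. Of 30 measured NRF2 targets and aldo-keto reductases, 13 were higher and 0 lower. The median was 0.92 over the 29 above the filter and 0.73 over all 30, or 0.39 with all probe sets averaged. AKR1B10, a reductase of aldehydes and retinal, stood at 11.28 in HPAF1, 7.76 in HPDE, 8.03 in PANC1, 8.06 in L3.6 and 8.34 in SU86.86. AKR1C3, a ketosteroid reductase, stood at 13.20 in HPAF1, 8.90 in HPDE, 6.64 in PANC1, 9.94 in L3.6 and 8.84 in SU86.86. NQO1, a quinone reductase, stood at 13.14 in HPAF1, 10.70 in HPDE, 10.94 in PANC1, 11.59 in L3.6 and 12.02 in SU86.86. AKR1B10 was 2-fold above HPDE in HPAF1 and in no other carcinoma line, AKR1C3 was 2-fold above HPDE in L3.6 as well, and NQO1 in SU86.86. AKR1C1 (1.97) and AKR1C2 (2.25) are nearly identical in sequence to each other and their probe sets cannot be assigned with certainty. ABCC3 (3.20), an efflux pump, differed by only 0.20 with probe sets that match 1 transcript. Of 32 aldehyde dehydrogenase and retinoid genes, 12 were higher and 2 lower. ALDH1A1, a retinal dehydrogenase, stood at 10.33 in HPAF1, 6.86 in HPDE, 6.95 in PANC1, 6.91 in L3.6 and 7.02 in SU86.86, and ALDH2, which clears acetaldehyde in mitochondria, at 13.06 in HPAF1, 11.27 in HPDE, 8.29 in PANC1, 9.94 in L3.6 and 9.46 in SU86.86. ALDH1A1 was below the filter everywhere but in HPAF1. ALDH2 had HPDE in the middle, with HPAF1 above it and the other 3 lines below. Retinol-handling genes higher in HPAF1 included RBP4 (2.37), DHRS3 (2.51) and SDR16C5 (2.94).

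Several sterol synthesis enzymes were higher in HPAF1 and in no other carcinoma line. Of 24 measured genes of sterol and fatty acid synthesis, 7 were higher and 0 lower, and all 7 were higher in no other carcinoma line. The median was 0.67 in HPAF1, -0.19 in PANC1, -0.42 in L3.6 and -0.56 in SU86.86. DHCR7, the last step of cholesterol synthesis in one branch, stood at 11.64 in HPAF1, 9.99 in HPDE, 10.38 in PANC1, 9.75 in L3.6 and 9.68 in SU86.86. LSS, which closes the sterol rings, stood at 11.30 in HPAF1, 9.75 in HPDE, 10.09 in PANC1, 9.45 in L3.6 and 10.12 in SU86.86, and FDPS, which makes farnesyl diphosphate, at 12.50 in HPAF1, 11.02 in HPDE, 11.33 in PANC1, 11.66 in L3.6 and 11.37 in SU86.86. ACSS2 (1.39), MSMO1 (1.19) and IDI1 (1.02) were smaller steps in the same direction. SC5D differed by 1.58 but by -0.54 with probe sets that match 1 transcript. Iron export showed 2 of the widest gaps. SLC40A1, ferroportin, stood at 11.68 in HPAF1, 7.98 in HPDE, 7.39 in PANC1, 7.18 in L3.6 and 7.32 in SU86.86, and HEPH, the ferroxidase that works with it in enterocytes, at 10.49 in HPAF1, 6.43 in HPDE, 6.58 in PANC1, 6.44 in L3.6 and 6.51 in SU86.86. Among carbonic anhydrases and monocarboxylate carriers, CA12 stood at 11.38 in HPAF1, 8.49 in HPDE, 8.18 in PANC1, 8.24 in L3.6 and 8.27 in SU86.86 and SLC16A5 at 12.53 in HPAF1, 9.08 in HPDE, 8.63 in PANC1, 8.27 in L3.6 and 8.56 in SU86.86, both highest in HPAF1 by more than 4-fold. For CA12 this depends on the probe set, as its 6 above the filter ran from 0.19 to 3.59 against HPDE.

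Some replication-dependent histone genes were higher in HPAF1. As background, most of their messages end without a poly(A) tail. Of 31 measured, 9 were higher and 1, H4C11 (-1.21), was lower, and 8 of the 9 were higher in no other carcinoma line. H2BC5 stood at 11.53 in HPAF1, 9.001 in HPDE, 9.58 in PANC1, 9.73 in L3.6 and 8.60 in SU86.86, and H2BC12 at 12.82 in HPAF1, 10.07 in HPDE, 11.53 in PANC1, 11.42 in L3.6 and 9.77 in SU86.86. HPAF1 had the highest level of both, PANC1 and L3.6 were intermediate, and HPDE and SU86.86 were low. H2BC6 (2.30), H2BC9 (2.18), H2BC4 (1.97), H2AC6 (1.95) and H4C8 (1.94) followed. The median was 0.61 over the 19 above the filter and 0.25 over all 31, and it was -0.12 to 0.04 in the other lines. Histone genes are near copies, so a probe set may read several of them.

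**Figure D3:**
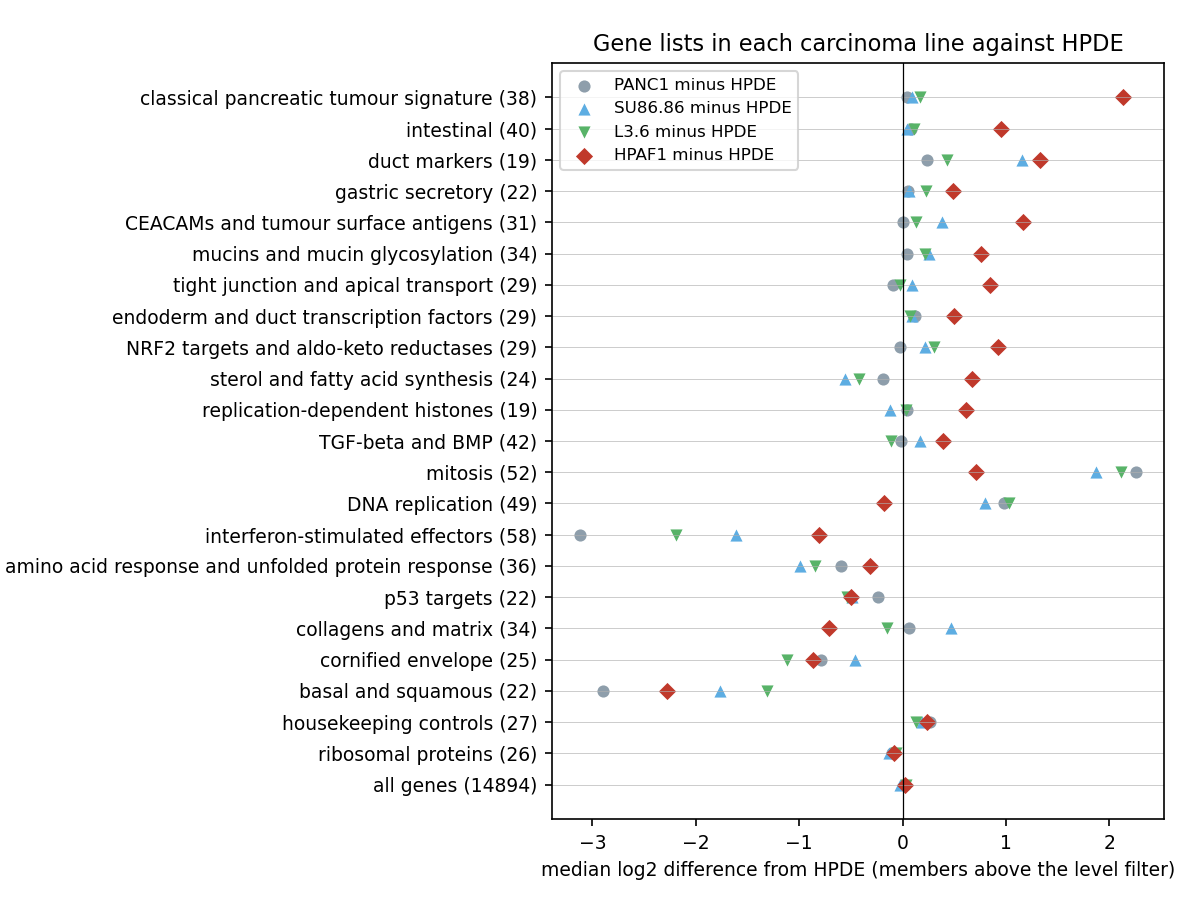
Median log2 difference from HPDE (horizontal) of the members above the level filter of 22 gene lists and of all genes, with their number in parentheses, for HPAF1 (red diamonds) and the other 3 carcinoma lines. HPAF1 stands to the right of the other lines for the classical signature (2.13) and sterol synthesis (0.67), and between HPDE and the other lines for mitosis (0.71) and interferon-stimulated effectors (-0.81).

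Signalling genes differed mostly in single members. In the TGF-beta and BMP list, 14 of 43 measured were higher and 2 lower, with a median of 0.39. Among ligands, BMP4 stood at 11.11 in HPAF1, 7.60 in HPDE, 7.47 in PANC1, 7.79 in L3.6 and 7.95 in SU86.86 and TGFB2 differed by 3.40. Among receptors, TGFBR2, the type II receptor of TGF-beta, stood at 13.02 in HPAF1, 9.68 in HPDE, 9.81 in PANC1, 11.21 in L3.6 and 11.46 in SU86.86, while TGFBR1 differed by -1.32. BAMBI, a decoy receptor that blocks the pathway, stood at 11.998 in HPAF1, 7.07 in HPDE, 7.70 in PANC1, 7.81 in L3.6 and 7.70 in SU86.86. BMP4 and BAMBI were high in HPAF1 and near or below the filter in the other lines, whereas TGFBR2 was also higher in SU86.86 and L3.6. The target genes ID2 and ID1 differed by 4.09 and 1.30, and the mediator SMAD1 by -2.94. Of 53 EGF family and receptor tyrosine kinase genes, 6 were higher (11.3%) and 5 lower, against 7.77% and 9.27% of all genes. ERBB3, a receptor of neuregulins, stood at 11.91 in HPAF1, 9.88 in HPDE, 7.48 in PANC1, 8.40 in L3.6 and 8.66 in SU86.86, with HPDE again between HPAF1 and the other 3 lines. The 3 ERBB3 probe sets above the filter differed by 0.61 to 2.03 between HPAF1 and HPDE. The feedback inhibitors SPRY4 (2.13), SPRY1 (2.18) and DUSP6 (1.54) were higher, and FGF2 (-2.81), IGF1R (-1.96) and EPHB4 (-1.81) lower. Of 45 WNT and NOTCH genes, 9 were higher and 7 lower. The WNT antagonists went both ways, DKK1 at 3.57 and SFRP1 at -3.02, and TCF7L2 (2.13), FZD5 (1.52) and RNF43 (1.51) were higher in HPAF1 and in no other carcinoma line. NOTCH3 differed by -2.61 but by 0.21 without the added constant.

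Of 32 measured cytokines, 9 were higher and 3 lower, with a median of 0.16 over the 27 above the filter and 0.05 over all 32. Neutrophil chemokines were shared with other carcinoma lines, CXCL5 at 11.21 in HPAF1, 6.37 in HPDE, 6.45 in PANC1, 11.66 in L3.6 and 13.36 in SU86.86 and CXCL8 at 10.54 in HPAF1, 7.10 in HPDE, 6.89 in PANC1, 10.35 in L3.6 and 12.15 in SU86.86. TNFSF15, a ligand of the tumour necrosis factor family, stood at 11.53 in HPAF1, 7.57 in HPDE, 7.13 in PANC1, 7.34 in L3.6 and 8.40 in SU86.86, and the cytokine IL32 at 10.45 in HPAF1, 7.54 in HPDE, 7.92 in PANC1, 7.57 in L3.6 and 8.33 in SU86.86. These were highest in HPAF1 and did not reach 2-fold over HPDE in the others. The interleukins IL1A (-3.69) and IL1B (-2.65) and the epithelial cytokine TSLP (-2.31) were lower than in HPDE. Of 29 complement and secreted defence genes, 9 were higher and 3 lower, with CD55 (2.91), WFDC2 (2.79) and CFB (2.44) on one side and the antiproteases PI3 (-2.48) and SLPI (-2.27) on the other. Prostaglandin genes, 19 measured, had 4 higher and 2 lower. HPGD, which degrades prostaglandins, stood at 10.85 in HPAF1, 8.47 in HPDE, 8.51 in PANC1, 8.53 in L3.6 and 8.54 in SU86.86, and PTGS2, which makes them, differed by -1.53.

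Among the genes lower in HPAF1 and in no other carcinoma line, several with the widest gaps belong to the cytoskeleton or the matrix. MSN, moesin, which ties actin to the membrane, stood at 7.57 in HPAF1, 10.06 in HPDE, 11.79 in PANC1, 11.89 in L3.6 and 12.02 in SU86.86. PFN2, a profilin of actin assembly, stood at 8.75 in HPAF1, 12.43 in HPDE, 13.10 in PANC1, 13.05 in L3.6 and 12.64 in SU86.86. IGFBP7, a secreted matrix-associated protein, stood at 7.67 in HPAF1, 11.65 in HPDE, 12.53 in PANC1, 11.71 in L3.6 and 12.29 in SU86.86. In each of the 3, HPAF1 was the lowest line by a wide margin, and MSN and IGFBP7 were below the filter there. CNN3 (-3.50), an actin-binding calponin, SGCE (-3.55), a sarcoglycan, and the microtubule-associated SPART (-2.92) were others. BCAT1, a branched-chain aminotransferase, stood at 6.79 in HPAF1, 10.25 in HPDE, 12.001 in PANC1, 10.29 in L3.6 and 12.63 in SU86.86, and PYGL, the liver form of glycogen phosphorylase, at 7.02 in HPAF1, 10.03 in HPDE, 10.34 in PANC1, 10.17 in L3.6 and 10.68 in SU86.86. BASP1, named above, had the widest gap of the class. It stood at 6.95 in HPAF1, 11.92 in HPDE, 13.37 in PANC1, 11.75 in L3.6 and 12.45 in SU86.86. Its second probe set above the filter differed from HPDE by only -0.25. HYCC1 (-3.21), PLAGL1 (-2.52) and MXRA7 (-3.94) completed the widest gaps together with 3 further genes. MXRA7 differed by -0.58 with probe sets that match 1 transcript, and SPART by -0.87 with all probe sets averaged. Of those 3 further genes, PALLD (-2.59) and PTPRS (-2.67) turned to 0.29 and 0.02 with probe sets that match 1 transcript. MICB, a stress ligand of natural killer cells, stood at 6.97 in HPAF1, 9.54 in HPDE, 11.48 in PANC1, 9.97 in L3.6 and 11.20 in SU86.86.

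Of 49 measured mesenchymal genes, 9 were higher and 13 lower in HPAF1, and 8 of the 13 were lower in no other carcinoma line. The median of 0.05 was close to that of all genes and ran from -0.08 to 0.14 over the alternatives. The caveolar genes CAVIN1 and CAV1 stood at 8.94 in HPAF1, 11.33 in HPDE, 12.87 in PANC1, 11.13 in L3.6 and 11.53 in SU86.86 and at 10.26 in HPAF1, 11.75 in HPDE, 13.63 in PANC1, 12.55 in L3.6 and 13.21 in SU86.86. VIM, the mesenchymal intermediate filament, stood at 9.52 in HPAF1, 8.02 in HPDE, 14.74 in PANC1, 13.84 in L3.6 and 12.71 in SU86.86. Its difference in HPAF1 was 0.83 with all probe sets averaged, so HPAF1 was nearest to HPDE and the other 3 lines were more than 16-fold above HPDE. DAB2, an endocytic adaptor, was the member farthest above HPDE (4.31), and GJA1 the farthest below. SPARC differed by -3.96 but by -0.73 with probe sets that match 1 transcript. Collagens and matrix genes, 37 measured, were lower in 15 and higher in 5. The median was -0.71 over the 34 above the filter and -0.43 over all 37. Over those 34, the medians of the other lines were 0.06 in PANC1, -0.15 in L3.6 and 0.47 in SU86.86. The basement membrane chains COL4A5 (-3.77), COL4A1 (-3.19) and COL4A6 (-3.18) were among the lowest. Of the 15, 2 were lower in no other carcinoma line, COL12A1 (-1.57) and SPOCK1 (-1.47). Integrins and laminins, 26 measured, had 5 higher and 2 lower. The collagen receptor subunit ITGA2 (4.12) led, and ITGB1, the common beta chain, was higher in HPAF1 and in no other carcinoma line (1.46).

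A further class consists of genes on which PANC1, SU86.86 and L3.6 parted from HPDE together and HPAF1 did not. There were 245 genes higher in those 3 lines (1.64%) and 174 lower (1.17%). On the higher side MSN had the widest gap, with EEF1A2 next. EEF1A2 is a tissue-restricted elongation factor and stood at 8.12 in HPAF1, 8.40 in HPDE, 12.21 in PANC1, 12.62 in L3.6 and 13.36 in SU86.86. HOXB7, a homeobox gene, stood at 7.50 in HPAF1, 7.18 in HPDE, 11.33 in PANC1, 10.87 in L3.6 and 11.43 in SU86.86, below the filter in HPAF1 and HPDE. Over the 3 HOXB7 probe sets above the filter, HPAF1 minus HPDE ran from 0.22 to 1.19, so the call depends on the probe set. The sorting nexin SNX10 (6.78 in HPAF1, 8.25 in HPDE, 10.53 in PANC1, 11.19 in L3.6 and 10.71 in SU86.86) and the neuropeptide GAL (6.97 in HPAF1, 8.77 in HPDE, 9.85 in PANC1, 11.32 in L3.6 and 10.91 in SU86.86) were 2-fold or more lower in HPAF1 than in HPDE. For LRRC8C, RASSF8, TFPI2 and FAM171A1 the differences of HPAF1 from HPDE were -0.60, -1.46, -1.34 and -0.01, whereas the other lines were all at least 2-fold above. HOX genes as a list, 26 measured, had 4 higher and 2 lower in HPAF1. HOXC6 (3.45) and HOXB9 (2.39) were higher, HOXB3 (-1.77) and HOXB2 (-1.42) lower. HOXB6 was higher by 4.81 on 1 probe set but by 0.49 with those that match 1 transcript.

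Of the 245 genes higher in the other 3 lines and not in HPAF1, 35 were on the list of mitotic genes. All 52 measured passed the filter. In HPAF1 14 were higher than in HPDE and 0 lower, with a median of 0.71. The medians of PANC1, SU86.86 and L3.6 were 2.26, 1.87 and 2.11. TOP2A, the topoisomerase of chromosome segregation, stood at 10.05 in HPAF1, 9.48 in HPDE, 12.14 in PANC1, 12.19 in L3.6 and 11.40 in SU86.86. MAD2L1, a spindle checkpoint protein, stood at 9.96 in HPAF1, 10.47 in HPDE, 11.50 in PANC1, 11.66 in L3.6 and 11.70 in SU86.86. KIF20A, a kinesin of cytokinesis, stood at 10.48 in HPAF1, 7.76 in HPDE, 11.02 in PANC1, 11.10 in L3.6 and 11.02 in SU86.86. HPAF1 was close to HPDE for TOP2A and the lowest of all lines for MAD2L1, whereas for KIF20A it was nearer to the other carcinoma lines. FOXM1, the transcription factor of the mitotic programme, differed by 0.06 in HPAF1, and by 2.21 in PANC1, 2.46 in L3.6 and 2.94 in SU86.86.

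As a list, DNA replication genes were near HPDE in HPAF1 and above it in the other 3 lines. Of 49 measured, 4 were higher and 5 lower, and the median was -0.18, while PANC1, SU86.86 and L3.6 had 0.98, 0.80 and 1.03. The 5 lower genes were lower in no other carcinoma line. They were RPA2 (-1.49), which coats single-stranded DNA, TIPIN (-1.38), which protects stalled forks, the helicase factor GINS2 (-1.34), the origin subunit ORC6 (-1.07) and WDHD1 (-1.04). GINS2 turned to 0.05 with probe sets that match 1 transcript. The higher genes were those of nucleotide supply and helicase loading, RRM2 (2.37), TK1 (1.56), MCM7 (1.29) and TYMS (1.28). RRM2, a ribonucleotide reductase subunit, stood at 11.18 in HPAF1, 8.81 in HPDE, 13.21 in PANC1, 13.34 in L3.6 and 13.22 in SU86.86, so HPAF1 lay between HPDE and the other 3. CDC25A, a phosphatase that starts S phase, stood at 7.45 in HPAF1, 8.02 in HPDE, 10.11 in PANC1, 10.20 in L3.6 and 10.003 in SU86.86. Among 23 G1 regulators, 1 was higher and 3 lower. CDKN2B, an inhibitor of CDK4 and CDK6, stood at 11.48 in HPAF1, 9.64 in HPDE, 6.53 in PANC1, 8.36 in L3.6 and 6.59 in SU86.86, and its neighbour CDKN2A at 13.45 in HPAF1, 13.17 in HPDE, 7.97 in PANC1, 12.47 in L3.6 and 8.02 in SU86.86. HPAF1 and HPDE were high in both, and PANC1 and SU86.86 were low in both. RBL1, a relative of RB1, stood at 7.26 in HPAF1, 8.96 in HPDE, 8.80 in PANC1, 8.83 in L3.6 and 8.57 in SU86.86.

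Sites for E2F, the factor family that drives S phase genes, were common in the promoters of the replication list. A site here is a motif match and says nothing of factor binding in these lines. Searched as TTTGGCGC, TTTCCCGC, TTTGCCGC and TTTCGCGC on both strands, a site occurred in 20 of 42 windows of that list (47.6%), in 20 of 209 windows (9.57%) of the genes higher in the other 3 lines and not in HPAF1, and in 4.93% of all 11885 windows. UHRF1, which maintains DNA methylation after replication, is shown because it belongs to both of these sets and its window holds a site. It stood at 9.17 in HPAF1, 9.23 in HPDE, 11.52 in PANC1, 10.95 in L3.6 and 11.26 in SU86.86. Its window (GRCh38.p14, chr19:4909251-4909550, plus strand) has 1 match, in capitals.
UHRF1: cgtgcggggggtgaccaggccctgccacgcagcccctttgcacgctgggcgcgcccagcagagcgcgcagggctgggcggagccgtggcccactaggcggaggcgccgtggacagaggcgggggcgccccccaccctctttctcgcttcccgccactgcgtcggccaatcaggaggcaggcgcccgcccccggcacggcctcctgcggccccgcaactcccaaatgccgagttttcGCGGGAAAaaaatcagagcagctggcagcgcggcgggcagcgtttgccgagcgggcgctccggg

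**Figure D4:**
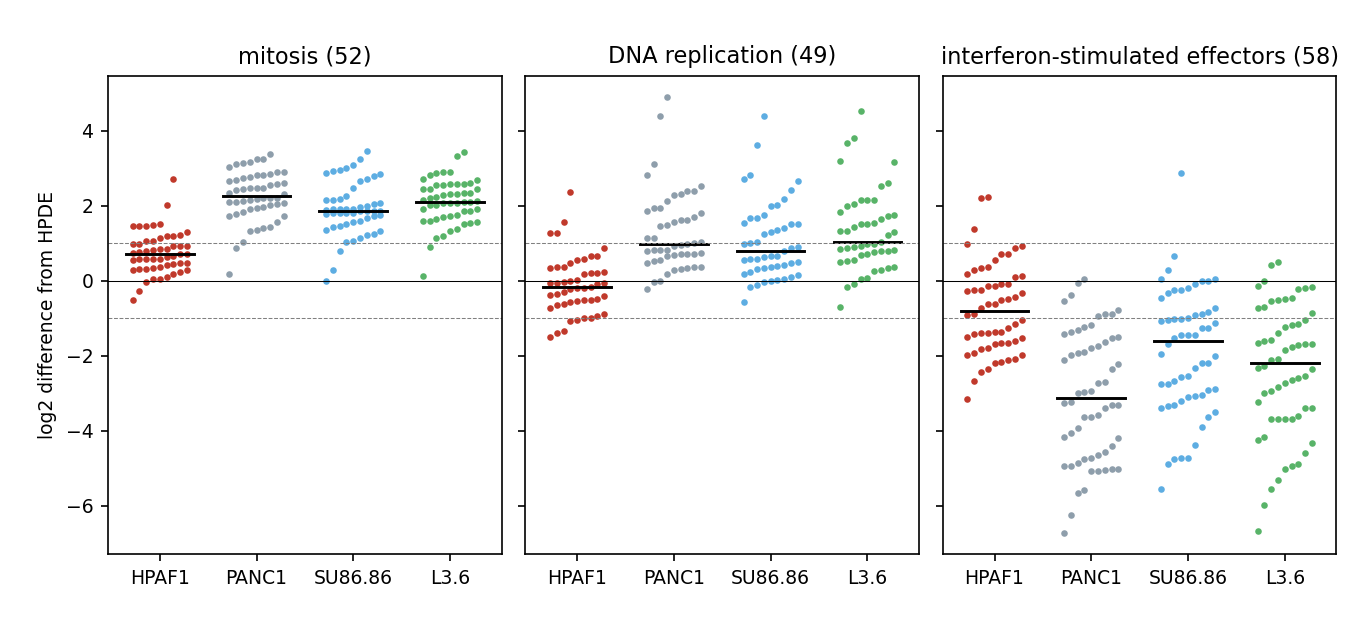
Log2 difference from HPDE (vertical) of each member above the filter of 3 gene lists, in HPAF1 and the other carcinoma lines, 1 point a gene, with black bars at the medians and dashed lines at 2-fold. The HPAF1 medians, 0.71 for mitosis, -0.18 for DNA replication and -0.81 for interferon-stimulated effectors, lie nearer to 0 than those of the other 3 lines.

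Of the 174 genes lower in the other 3 lines and not in HPAF1, 15 were interferon-stimulated effectors. HPAF1 was lower than HPDE in 27 of 62 measured effectors and higher in 3, with a median of -0.81 over the 58 above the filter and -0.62 over all 62. PANC1, SU86.86 and L3.6 had medians of -3.12, -1.61 and -2.19. BST2, which tethers budding virions, stood at 11.91 in HPAF1, 12.40 in HPDE, 6.74 in PANC1, 7.08 in L3.6 and 6.84 in SU86.86. IFI27, an interferon-induced mitochondrial protein, stood at 14.20 in HPAF1, 13.86 in HPDE, 7.14 in PANC1, 7.19 in L3.6 and 11.91 in SU86.86. OAS1, a sensor that activates RNase L, stood at 12.23 in HPAF1, 10.84 in HPDE, 7.88 in PANC1, 9.07 in L3.6 and 8.28 in SU86.86. HPAF1 was within 2-fold of HPDE for BST2 and IFI27 and above it for OAS1, while the other lines were 2-fold or more below HPDE for all 3. OAS1 exceeded HPDE by 1.39, or by 0.88 with all probe sets averaged. RTP4 (0.92), PLSCR1 (0.14) and TNFSF10 (-0.09) were within 2-fold of HPDE as well. Other effectors were far below HPDE, since IFIT1 (-2.16), IFI44L (-2.66), RSAD2 (-2.44) and OAS2 (-2.34) were more than 4-fold lower. For OAS2 this depends on the probe set, as its 3 above the filter ran from -2.34 to 0.45. LAMP3 stood at 8.41 in HPAF1, 11.58 in HPDE, 6.94 in PANC1, 7.89 in L3.6 and 8.27 in SU86.86, the widest difference of the list. GBP3 (2.22), a guanylate-binding protein, and APOL1 (2.23), an apolipoprotein with antiparasitic activity, were higher than in HPDE. Of 27 interferon receptors and signalling genes, 2 were higher, STAT6 (1.61) and SOCS3 (1.58), and 2 lower, IRF5 (-1.21) and IRF7 (-1.20), with a median of 0.03 that ran from -0.02 to 0.11 over the alternatives. IRF7 was also lower in PANC1 (-2.74), L3.6 (-5.55) and SU86.86 (-2.31). In this list 1 member, IRF9, was lower in the other 3 lines and not in HPAF1. IRF9 differed from HPDE by -0.33 in HPAF1, -3.79 in PANC1, -4.01 in L3.6 and -3.44 in SU86.86.

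The interferon-stimulated response element, searched as GAAA, any 2 bases, then GAAA, on both strands, occurred in 32 of 46 promoter windows of the effector list (69.6%) and in 2.68% of all 11885 windows. Among the effectors lower in the other 3 lines and not in HPAF1, 9 of 14 windows had it (64.3%). A match is a description of the sequence and says nothing of factor binding in these lines. BST2 (GRCh38.p14, chr19:17405581-17405880, minus strand) and IFI27 (chr14:94110486-94110785, plus strand) are shown as members of that set, with 2 matches each in capitals.
BST2: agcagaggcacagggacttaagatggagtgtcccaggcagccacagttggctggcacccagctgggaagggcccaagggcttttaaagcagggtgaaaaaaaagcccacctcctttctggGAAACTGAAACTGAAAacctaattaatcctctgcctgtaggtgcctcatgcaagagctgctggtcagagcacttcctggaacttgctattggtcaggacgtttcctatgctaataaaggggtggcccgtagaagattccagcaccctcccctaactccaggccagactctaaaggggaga
IFI27: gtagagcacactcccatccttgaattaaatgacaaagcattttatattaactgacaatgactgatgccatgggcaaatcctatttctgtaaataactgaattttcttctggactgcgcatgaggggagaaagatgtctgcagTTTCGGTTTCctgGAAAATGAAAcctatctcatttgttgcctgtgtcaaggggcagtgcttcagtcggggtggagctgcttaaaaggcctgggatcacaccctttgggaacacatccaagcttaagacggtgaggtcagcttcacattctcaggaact

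Antigen presentation genes went both ways, and over all genes 7.77% were higher and 9.27% lower. Of 23 measured class I genes, 3 were higher, ERAP2 (1.24), TAPBPL (1.21) and TAPBP (1.08), and 3 lower, MICB, ULBP2 (-1.11) and TAP2 (-1.02), with a median of -0.36. TAPBP differed by 0.39 with all probe sets averaged. Of 13 class II genes, HLA-DMA (1.98) was higher and HLA-DQB1 (-1.07) lower.

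Apart from interferon genes, genes lower in the other 3 lines and not in HPAF1 included proteases and transporters. The widest gaps over the other 3 lines were those of KLK10, BST2 and SLC16A4, a monocarboxylate carrier, at 11.84 in HPAF1, 9.65 in HPDE, 6.56 in PANC1, 6.64 in L3.6 and 7.06 in SU86.86. IL20RB, a receptor subunit for interleukins of the skin, stood at 11.17 in HPAF1, 12.13 in HPDE, 7.24 in PANC1, 7.63 in L3.6 and 7.51 in SU86.86, and the amino acid carrier SLC38A5 at 10.05 in HPAF1, 9.93 in HPDE, 6.89 in PANC1, 6.90 in L3.6 and 6.85 in SU86.86. Both were well above the filter in HPAF1 and HPDE and below it in the others. In 16 genes (0.107%) HPDE lay between, with HPAF1 2-fold on one side and the other 3 lines 2-fold on the other. Besides KLK10, SLC16A4, ERBB3, ALDH2, CDKN2B, OAS1, MSN, SNX10, GAL, RASSF8 and TFPI2, these included RESF1 (12.10 in HPAF1, 10.61 in HPDE, 9.08 in PANC1, 8.57 in L3.6 and 8.57 in SU86.86) and PAX8-AS1 (2.18), whose difference was 0.77 with all probe sets averaged. The rest were MCUB (-1.02), PLAAT4 (1.18) and RAB27B (1.12).

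The remaining lists showed smaller or mixed differences. Over all genes 7.77% were higher and 9.27% lower, and small counts near these shares say little about a list. Of 22 p53 targets, 3 were higher, TP53I3 (2.26), GDF15 (1.91) and PLK2 (1.16), and 6 lower, PHLDA3 (-1.93) first, with a median of -0.50. Of 36 genes of the amino acid and unfolded protein responses, 1 was higher and 8 lower. The hormone STC2 (-3.35), the transporter SLC7A5 (-2.07) and the serine synthesis enzyme PHGDH (-1.88) were among them, and ATF3 (-1.92) turned to 0.12 with probe sets that match 1 transcript. Of 32 glycolysis and hypoxia genes, 6 were higher and 2 lower. BNIP3, a mitophagy receptor, stood at 6.62 in HPAF1, 10.97 in HPDE, 11.002 in PANC1, 10.01 in L3.6 and 9.51 in SU86.86, and only HPAF1 had it below the filter. Of 29 cell death regulators, 3 were higher and 4 lower, with GSDME, a gasdermin, at 7.11 in HPAF1, 11.19 in HPDE, 8.28 in PANC1, 10.35 in L3.6 and 10.88 in SU86.86. Of 26 drug transport and nucleotide genes, 9 were higher and 3 lower. UPP1, uridine phosphorylase, stood at 9.95 in HPAF1, 13.40 in HPDE, 11.35 in PANC1, 9.67 in L3.6 and 11.99 in SU86.86, NT5E, which makes adenosine, differed by 2.97, and the efflux pump ABCG2 by 2.41. Another NT5E probe set above the filter differed by only 0.37. Of 19 genes of the IGF system and oncofetal group, 4 were higher and 3 lower, IGFBP3 at 3.84, IGFBP1 at 3.71 and IGFBP2 at -3.76. Of 18 S100 genes, 2 were higher and 3 lower, and of 17 metallothionein and zinc transporter genes 1 was higher, SLC39A10 (2.03), and 4 lower, MT1E (-1.64) among them. Of 19 cancer-testis genes, 0 were higher and 1 was lower, KDM5B (-1.42), which turned to 0.15 with probe sets that match 1 transcript.

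Markers of other cell types seldom differed by 2-fold. The filter is the median of all probe sets, and 14894 of 19775 genes passed it in some line. Passing it does not show that a marker is expressed. Of acinar markers 7 of 13 measured passed the filter, of endocrine markers 7 of 14, of fibroblast and stellate markers 12 of 16, of leukocyte markers 6 of 14 and of endothelial markers 5 of 12. The members 2-fold higher in HPAF1 were the trypsin inhibitor SPINK1 (1.56), LYZ, CD14 (1.01) and ESAM (1.05), and 0 were lower. Fewer cells of a type and less RNA per cell cannot be told apart in such bulk samples, and each sample here is a single line. Of 27 control housekeeping genes, the transferrin receptor TFRC (1.79) and the tubulin TUBA1B (1.17) were higher and TBP (-1.29) lower, with a median of 0.23. Another TFRC probe set above the filter differed by -0.07. Of 26 ribosomal protein genes, 0 reached 2-fold in either direction.

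The differences were spread unevenly over the chromosomes. The share of genes lower in HPAF1 was 16.3% of 263 genes on chromosome 13, 15.7% of 521 on chromosome 4, 15.6% of 474 on chromosome 15 and 14.6% of 1481 on chromosome 1, with 110 of 775 on chromosome 6. It was 3.05% of 886 genes on chromosome 11, and 9.27% of all genes. The share of higher genes was largest on chromosome 3, 12.9% of 832, and 4.93% of 1075 on chromosome 19, against 7.77% of all genes. On chromosome 13, 25 genes (9.51%) were lower in HPAF1 and in no other carcinoma line, and on chromosome 15 there were 38 (8.02%), against 3.59% of all genes. Chromosome medians lay between -0.14 on chromosome 4 and 0.15 on chromosome 11. DNA copy number was not measured, and its part in the result was not tested. There were 14530 overlapping runs of 15 neighbouring genes, and the median of their medians was 0.01. The runs named here were picked for their extreme medians. The lowest median, -1.64, lay on chromosome 13 from ARGLU1 to LOC101060553, with 8 genes lower and 1 higher. The highest, 1.11, lay on chromosome 10 from AKR1C1 to RBM17, with 8 higher and 0 lower, and it begins in the aldo-keto reductase cluster. A run on chromosome 1 that ends at S100A9 had a median of -1.39, with 8 genes lower.

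**Figure D5:**
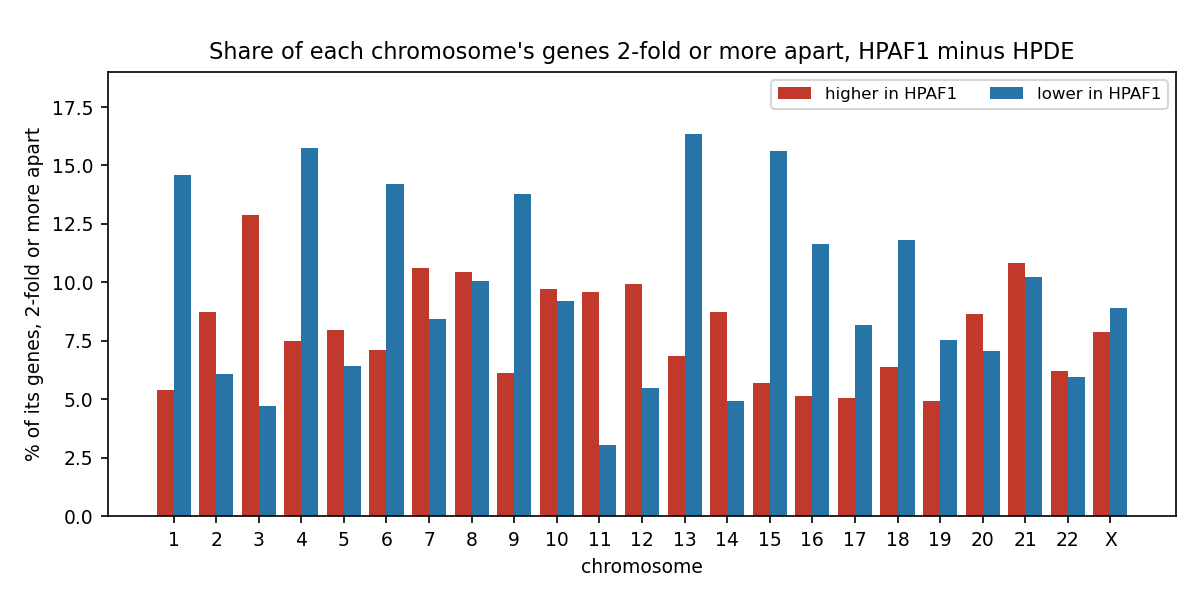
Percent of each chromosome's genes (vertical) that were 2-fold or more higher (red) or lower (blue) in HPAF1 than in HPDE, by chromosome (horizontal). Blue bars are tallest on chromosomes 1, 4, 6, 13 and 15, and the tallest red bar, 12.9%, is that of chromosome 3.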

How the data were processed

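RNA of each of the 5 lines was prepared on silica columns, labelled with biotin by a one-cycle kit and hybridised to 1 array, per the labels. The deposited values are linear intensities, 1 per probe set and array, and their summarising, background correction and scaling are not given in the sources used here. Medians per array ran from 137 to 143. With 1 array per line the number of arrays limits the precision. Of 54675 probe sets, 62 were controls, 41091 carried 1 gene symbol, 1801 had several, and the annotation held no entry for 11721. Symbols of 41037 were updated through RefSeq gene IDs, and 54 kept the older symbol. Values were taken as log2(intensity + 71.1), where the constant is the 25th percentile of positive values. Each gene was represented by the probe set with the highest mean over the 5 arrays. A gene was retained where its highest line reached the median of all probe sets (intensity 140). No test was run, because no line has a replicate. A gene was called at 2-fold or more.

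The 52 gene lists and the members were chosen with earlier results of these data known. Genes named by rule were the 15 highest and 15 lowest, the 15 or 10 with the widest gaps in each class, and up to 6 members of each list by size and 2 by gap. Of the other genes named, GSTM4, CHKA, HK1 and MCM3 mark the threshold, and the rest, such as CDKN2A, CDX2, GATA6, IFI27, TOP2A and UHRF1, were chosen after their values were seen. Promoters were searched in 300-base windows of RefSeq genes on GRCh38.p14, of which 11885 matched a retained gene. The sorting of genes was run on simulated data with large differences planted in bright genes, on all probe sets of each gene. That run cannot show how the sorting performs near 2-fold, near the filter or where probe sets disagree. Python 3.11.15, numpy 2.4.6 and pandas 2.3.3 were used.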

Additional observations from a re-analysis of the deposited data

Results flagged for a closer look

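For 16 genes HPAF1 lay 2-fold or more on one side of HPDE and the other 3 carcinoma lines 2-fold or more on the other. The difference between HPAF1 and these lines was not tested, since each line has 1 array. Among those with the widest gap, HPAF1 minus HPDE was 3.39 for KLK10, 2.19 for SLC16A4, 2.18 for PAX8-AS1, 2.03 for ERBB3, 1.84 for CDKN2B, 1.79 for ALDH2, 1.49 for RESF1 and 1.39 for OAS1. It was -2.49 for MSN and -1.47 for SNX10. Other probe sets above the filter gave less than 2-fold for KLK10, PAX8-AS1, ERBB3 and OAS1.

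Probe sets that carry no or several gene symbols enter no comparison above. Of 5464 such probe sets above the level filter, 492 were 2-fold or more apart between HPAF1 and HPDE, 185 higher and 307 lower in HPAF1. That is 9.0% in both directions together. Of the 14894 genes compared, 2538 were 2-fold or more apart, 7.77% higher and 9.27% lower, which is a larger share.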

How the results depend on the processing

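Over the alternatives, 66 of 85 counts stayed within 1.5 times the value reported. Averaging all probe sets of a gene left 916 genes lower, 335 lower in HPAF1 and in no other carcinoma line, 109 lower in the other 3 lines and not in HPAF1, and 8 on opposite sides of HPDE. Without the added constant 29 genes were on opposite sides. At 4-fold, 364 genes were higher and 246 lower, 211 and 97 of them in HPAF1 and in no other carcinoma line, 44 were higher and 41 lower in the other 3 lines and not in HPAF1, and 1 was on opposite sides. Classes that require all other lines grow when a line is left out. Without PANC1, 281 genes were lower in the others and not in HPAF1. Without SU86.86 there were 372 higher and 329 lower, with 34 on opposite sides, and without L3.6 there were 417 and 271, with 48 on opposite sides. Of the alternative list medians, 90 moved and 378 did not. The sign of the median depended on the setting for 9 of the 52 lists, whose medians lay between -0.08 and 0.11 as reported: S100 proteins, the basal-like signature, cancer-testis antigens, clade B serpins, fibroblast markers, interferon receptors and signalling, the mesenchymal list, prostaglandin synthesis and ribosomal proteins. Of 267 named genes past 2-fold, 210 stayed past it in all 9 settings. The sign turned for NOTCH3 without the constant (0.21), and with probe sets that match 1 transcript for ATF3 (0.12), GINS2 (0.054), KDM5B (0.15), PALLD (0.29), PTPRS (0.024) and SC5D (-0.54), where another probe set stands for the gene. No paired analysis was possible because each line has 1 array. Levels near the filter carry the least information.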
